A study of Mus musculus with 15 samples.

Results

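The 35 genes described here encode the integrated stress response and the unfolded protein response of the endoplasmic reticulum. They were taken by symbol from the deposited gene table, which lists 36144 genes, and all 35 were found. They fall into 3 sets: the 4 Eif2ak kinases, 17 genes of the Atf4 arm and 14 genes of the Xbp1/Atf6 chaperone arm. All 35 reached 1 TPM (transcripts per 1000000, a share of the library's RNA corrected for transcript length) in at least 3 libraries and so passed the filter on low values, as did 15425 genes in all. The RNA came from motor neurons of the lumbar segments L1 to L3 that had been labelled with cholera toxin subunit B and cut out by laser at postnatal day 6, in mice on an FVB background with both sexes in equal numbers. The wild-type group (WT) was Smn+/+;SMN2;SMNΔ7 and the spinal muscular atrophy group (SMA) was Smn-/-;SMN2;SMNΔ7, and both received vehicle. The other 3 groups were SMA mice injected intraperitoneally every day from postnatal day 0 with MW150 at 5 mg/kg (a p38α inhibitor), Pifithrin-α at 2.2 mg/kg (a p53 inhibitor) or SMN-C3 at 3 mg/kg (a modifier of SMN2 splicing). Every group, the controls included, carried the human SMN2 and SMNΔ7 transgenes, and each group had 3 biological replicates, giving 15 libraries.

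In the integrated stress response, kinases that each sense a different stress phosphorylate the translation factor eIF2α, which lowers general protein synthesis while the mRNA of the transcription factor Atf4 is translated more. Atf4, working with partners of the C/EBP family, induces genes of amino acid synthesis and import and, in long stress, Ddit3 (also called Chop) and its targets. The unfolded protein response has its own sensors in the endoplasmic reticulum membrane: Ern1, which splices the Xbp1 mRNA, Atf6, which is cut to release a transcription factor, and the kinase Eif2ak3, through which it joins the integrated stress response. Because phosphorylation, Xbp1 splicing and Atf6 cleavage act after transcription, mRNA levels report only the transcriptional side of these pathways.

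The arms differ in the sequence elements near the starts of some of their genes, which is why a few are shown. RefSeq promoter windows of GRCm38.p6, from 250 bases before to 50 after the start, were matched for 33 of the 35 genes. Both strands were searched for the C/EBP-ATF composite element TGATGNAA, for the endoplasmic reticulum stress element (CCAAT, 9 bases, then CCACG), for its second form, called ERSE-II, and for the unfolded protein response element TGACGTGG. The composite element lay in 5 of 16 Atf4-arm promoters (Trib3, Nupr1, Chac1, Asns and Slc7a11) and in 1 of 13 chaperone-arm promoters (Herpud1), against 4.51% of all genes with a window. The stress element lay in 5 of 13 chaperone-arm promoters (Hspa5, Hsp90b1, Calr, Canx and Syvn1) and in 0 of 16 of the Atf4 arm, against 0.137% of all genes. The second form was found in Herpud1 alone among the members, against 0.0444% of all genes, and the unfolded protein response element in none of the 33, against 0.714%. None of the 4 kinase promoters held any of these elements. A match is a run of letters and says nothing of binding in these cells.

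Windows of the composite element follow, each read 5′ to 3′ on the gene's strand with the element in capitals, for Chac1 at chr2:119351035-119351070 (plus strand), Slc7a11 at chr3:50443639-50443693 (minus strand) and Herpud1 at chr8:94386303-94386401 (plus strand), where the second capital run is the second form of the stress element.
Chac1: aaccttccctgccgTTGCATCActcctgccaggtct
Slc7a11: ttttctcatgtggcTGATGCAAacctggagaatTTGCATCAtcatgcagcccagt
Herpud1: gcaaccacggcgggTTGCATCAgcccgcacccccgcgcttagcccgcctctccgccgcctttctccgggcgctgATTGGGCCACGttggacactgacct
The stress element itself, found in 5 of 13 chaperone-arm promoters, is shown next in capitals. It is given for Canx at chr11:50325786-50325832 (minus strand), Calr at chr8:84847061-84847107 (minus strand), Syvn1 at chr19:6046518-6046564 (plus strand) and Hsp90b1 at chr10:86705519-86705670 (minus strand). Hsp90b1 has 2 copies on opposite strands.
Canx: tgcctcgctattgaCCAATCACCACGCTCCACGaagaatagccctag
Calr: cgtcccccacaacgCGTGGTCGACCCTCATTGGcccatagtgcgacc
Syvn1: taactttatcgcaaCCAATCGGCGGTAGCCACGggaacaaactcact
Hsp90b1: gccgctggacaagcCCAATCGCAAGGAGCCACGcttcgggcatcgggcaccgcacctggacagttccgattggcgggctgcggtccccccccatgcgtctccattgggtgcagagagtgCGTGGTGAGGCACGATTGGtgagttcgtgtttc

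Before the results, 2 libraries have to be named. Mitochondrially encoded genes took 21.9% of TPM in WT replicate 1 and 20.4% in Pifithrin-α replicate 3, against 3.76% to 12.6% in the other 13 libraries. Both were the 2 lowest of the 15 libraries for 11 of 17 Atf4-arm genes (64.7%) and for 4 of 14 chaperone-arm genes, against 26.2% of all genes tested. Set medians, named changes and counts of members by an unadjusted p or by overlap in comparisons that include either of them are given with and without them, except where array weights were used. Smn1 was at 8.97 to 23.3 TPM in the WT libraries and at 0 to 1.498 TPM in the 12 SMA-genotype libraries. All 11 motor neuron markers were at 1 TPM or more in every library, and so were all 10 astrocyte and all 11 oligodendrocyte markers, 7 of 12 microglial markers and 3 of 9 vascular markers. The summed microglial markers were at 59.8 to 94.0 TPM in WT, 174.1 to 204.2 in SMA, 130.6 to 178.1 with MW150, 68.9 to 127.5 with Pifithrin-α and 92.2 to 127.7 with SMN-C3. These ranges of WT and SMA do not overlap, with SMA higher, an order that 14.5% of all genes also had. The difference was not tested, and neither was the part of microglial RNA in the results below. Fewer cells of a type and less RNA per cell cannot be told apart in such samples.

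No member changed in any of the 7 comparisons tested at an adjusted p under 0.05, with all 15 libraries weighted equally. The tests were limma's moderated test on log2(TPM + 1), fitted over all 15 libraries with Benjamini-Hochberg adjustment over the 15425 genes, for SMA against WT and for each compound against SMA and against WT. In SMA against WT 0 of 35 members were called, where 0.363% of all genes were. In SMA against WT, 3 members had an unadjusted p under 0.05, Cebpb and Ddit3 (higher) and Dnajb9 (lower), against 13.5% of all genes. When the 2 libraries were left out they were Cebpb, Ddit3 and Eif2ak3 (all higher), against 10.1%. With compounds, called members were again 0 of 35 in each comparison, against 0.00648% of all genes for MW150 against SMA, 0.00648% for Pifithrin-α against SMA, 0.0648% for SMN-C3 against SMA, 0.143% for MW150 against WT, 0.117% for Pifithrin-α against WT and 0.0194% for SMN-C3 against WT. When libraries were weighted by their estimated quality (limma array weights), members were called in 3 comparisons, which are given beside the compounds below.

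The width of the intervals sets what this absence of calls can say. In SMA against WT, 10 of 35 members had a 95% interval of the log2 change that lay between -1 and 1, against 25.9% of all genes. Without the 2 libraries of high mitochondrial share, 27 of 35 members had one, against 48.7% of all genes, and 13 of the 14 chaperone-arm genes were among them. For the other members the interval reached past a log2 change of 1 in at least 1 direction.

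The median log2 change from WT to SMA was 0.56 over the Atf4 arm, 0.07 over the kinases and 0.00 over the chaperone arm, beside 0.24 over all genes tested. Of the 17 Atf4-arm genes, 15 were above 0 with all libraries, against 66.5% of all genes, and 14 were above the all-gene median. Without WT replicate 1 and Pifithrin-α replicate 3, 14 were above 0, against 63.3%, and 10 were above the all-gene median. The set medians were then 0.19, 0.14 and -0.02, beside 0.12 over all genes. With each library left out in turn, the kinase median ranged from -0.18 to 0.19, the chaperone-arm median from -0.08 to 0.11 and the Atf4-arm median from 0.19 to 0.80, the lowest without WT replicate 1 and the highest without WT replicate 3. Scaling by the median of ratios moved the median of all genes from 0.24 to 0.04 and the chaperone-arm median to -0.25, while the Atf4-arm median was 0.37.

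**Figure D1:**
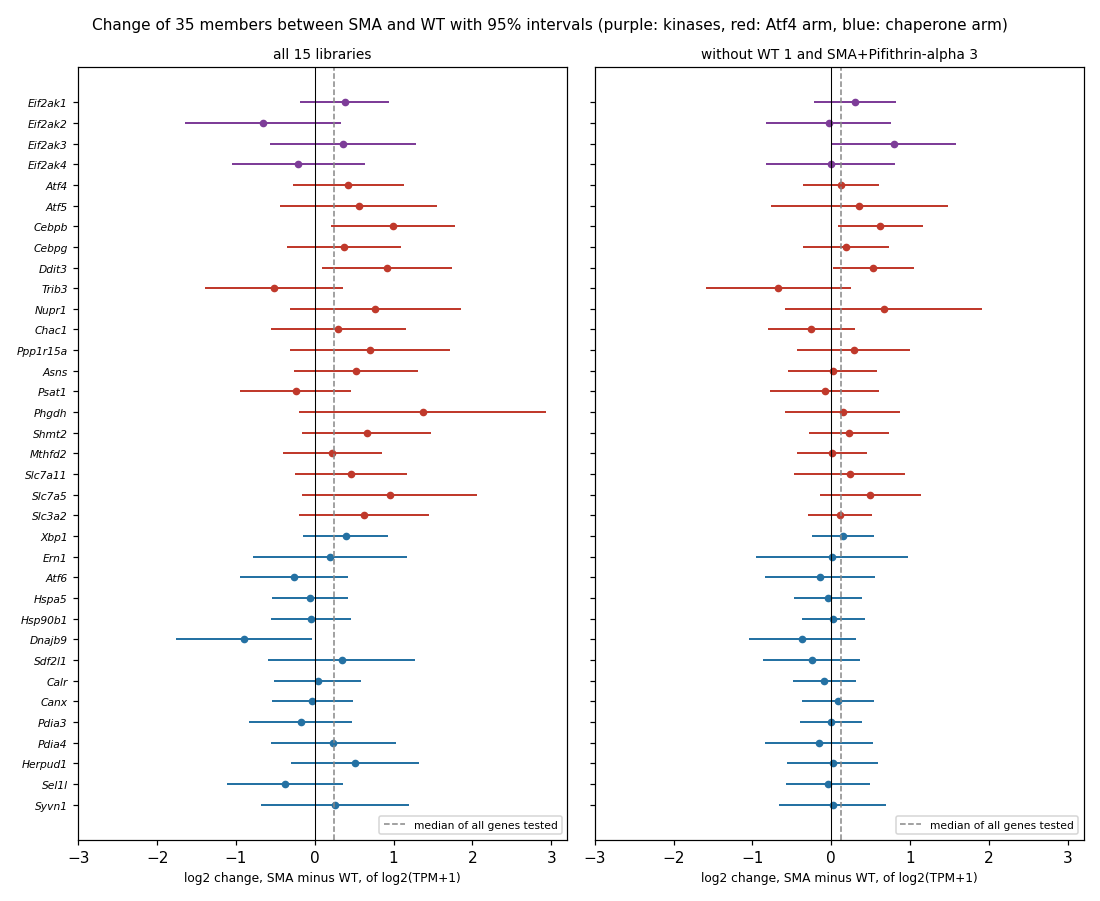
Log2 change of log2(TPM + 1) from WT to SMA for each of the 35 genes (points) with 95% intervals (lines), for all 15 libraries on the left and without WT replicate 1 and Pifithrin-α replicate 3 on the right; purple marks kinases, red the Atf4 arm and blue the chaperone arm. The dashed line is the median of all genes tested, 0.24 on the left and 0.12 on the right, and most red points move towards 0 from left to right.

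Of the 4 kinases, 3 were low in these neurons, and none separated SMA from WT. Eif2ak1, the haem-regulated kinase that also relays mitochondrial stress, was the highest of them at a mean of 22.6 TPM over 15 libraries and was at 18.5 ± 3.98 TPM across WT and 24.2 ± 3.17 in SMA (SD, n = 3). Eif2ak2, which senses double-stranded RNA, averaged 5.84 TPM, Eif2ak3, the endoplasmic reticulum kinase Perk, 5.25 TPM, and Eif2ak4, which senses uncharged tRNA, 3.22 TPM. Eif2ak4 was the lowest of the 4 in every library except WT replicate 2 and MW150 replicate 3. The means of Eif2ak2 and Eif2ak3 were closer to each other than the SD within WT of either (8.34 and 3.48 TPM), so their order is not resolved.

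Eif2ak2 was at 18.8, 2.84 and 6.56 TPM in the WT libraries and between 3.47 and 6.27 TPM in the other 12 libraries. WT replicate 1 was the highest of all, and its 18.8 TPM included 8.07 TPM of the protein-coding transcript Eif2ak2-201. Eif2ak3 was at 8.52, 1.58 and 4.57 TPM in the WT libraries and 7.14, 3.93 and 6.16 TPM in SMA. The WT libraries of Eif2ak3 included the highest and the lowest of all 15, and SMA lay between them. Its log2 change was 0.36 (SE 0.434, limma adjusted p = 0.687), and 0.80 (SE 0.364, adjusted p = 0.476) without the 2 libraries, with an unadjusted p of 0.0434. Eif2ak4 ranged from 1.46 TPM in SMA replicate 3 to 4.78 TPM in WT replicate 1 with SMA overlapping every other group.

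Among the transcription factors of the Atf4 arm, Cebpb, Cebpg, Ddit3 and Atf4 itself were lower in WT replicate 1 and Pifithrin-α replicate 3 than in any other library. Atf4 was at 20.7, 38.6 and 41.4 TPM in WT, 47.0, 37.6 and 46.7 in SMA, 37.6, 48.4 and 62.1 with MW150, 57.3, 43.8 and 24.9 with Pifithrin-α and 42.3, 37.5 and 37.9 with SMN-C3. The groups overlapped throughout, and the 95% interval of the change from WT to SMA was -0.26 to 1.11 with all libraries and -0.35 to 0.59 without the 2 libraries. This interval is given because Atf4 is the arm's central factor.

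Cebpb, a C/EBP factor that Atf4 induces and that also acts in inflammation, was at 4.90, 13.1 and 10.5 TPM in the WT libraries and 19.6, 16.7 and 19.8 in SMA. With MW150 it was at 19.1, 20.3 and 12.9 TPM, with Pifithrin-α at 12.0, 11.1 and 4.95, and with SMN-C3 at 14.4, 14.3 and 13.9. All SMA libraries were above all WT, Pifithrin-α and SMN-C3 libraries, and MW150 overlapped SMA and WT. The log2 change from WT to SMA was 0.99 (SE 0.366, limma adjusted p = 0.302) and 0.62 (SE 0.248, adjusted p = 0.386) without the 2 libraries.

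Ddit3, the proapoptotic factor Chop, was at 22.1, 50.02 and 50.9 TPM in the WT libraries and 88.1, 75.0 and 60.3 in SMA. It was at 51.4, 76.6 and 59.1 TPM with MW150, 65.2, 61.8 and 23.7 with Pifithrin-α and 42.9, 71.1 and 59.6 with SMN-C3. Every SMA library was above every WT library, and each compound group overlapped SMA. The log2 change from WT to SMA was 0.92 (SE 0.385, limma adjusted p = 0.346) and 0.54 (SE 0.233, adjusted p = 0.449) without the 2 libraries. Ddit3 has 2 gene records in GENCODE that overlap on the same strand, and it overlaps Mars and Gm4189 on the other strand, so its reads may be shared.

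Cebpb, Ddit3, Ppp1r15a, Shmt2 and Slc7a5 were the 5 members whose SMA libraries were all above the WT libraries, against 14.5% of all genes. The same 5 stood above WT without the 2 libraries, against 18.1% of all genes. Cebpg, the C/EBP partner that Atf4 pairs with on composite elements, ranged from 8.82 TPM in Pifithrin-α replicate 3 to 24.8 TPM in Pifithrin-α replicate 1. Atf5, an Atf4-related factor of the mitochondrial stress response, was at 4.44 TPM in SMA replicate 2 and at 0.147 to 1.43 TPM in the other 14 libraries.

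**Figure D2:**
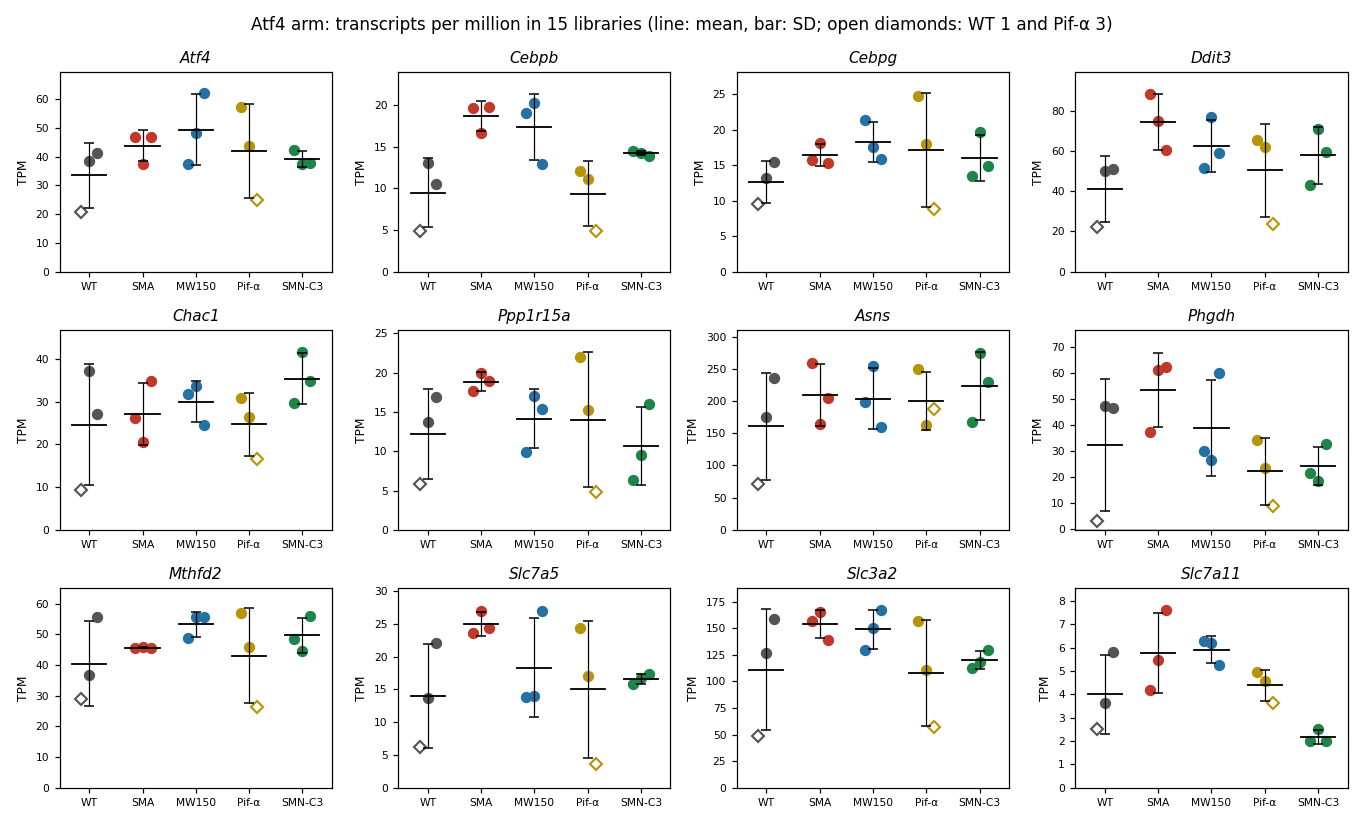
TPM of 12 Atf4-arm genes in the 15 libraries, by group (WT, SMA and SMA with MW150, Pifithrin-α or SMN-C3); points are libraries, horizontal lines group means, bars SD (n = 3), and open diamonds WT replicate 1 and Pifithrin-α replicate 3. The diamonds are the lowest points of their groups in all panels except that of Asns with Pifithrin-α, and the 3 SMN-C3 points of Slc7a11 (2.003 to 2.535 TPM) lie below every point but that of WT replicate 1 with 2.53.

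Of the downstream effectors, Ppp1r15a (Gadd34), the regulatory subunit that brings a phosphatase to eIF2α and ends the response, was at 5.86, 13.8 and 16.95 TPM in the WT libraries and 17.6, 20.0 and 19.0 in SMA. With MW150 it was at 9.92, 17.1 and 15.4 TPM, with Pifithrin-α at 22.0, 15.2 and 4.86, and with SMN-C3 at 6.32, 9.46 and 16.0. SMA was above WT, MW150 and SMN-C3 in every library. Chac1, which degrades glutathione, was at 24.6 ± 14.1 TPM across WT and 27.1 ± 7.26 in SMA (SD, n = 3). It reached 35.4 ± 6.01 with SMN-C3, with the groups overlapping.

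Trib3, a pseudokinase that Ddit3 induces, stayed between 0.424 and 3.19 TPM. It was at 1.76, 2.51 and 3.19 TPM in the WT libraries and 2.47, 0.475 and 1.73 in SMA, so the groups overlapped. Without the 2 libraries of high mitochondrial share, all SMA libraries were below WT, as were those of 6.95% of all genes. Only then was the order the reverse of the one seen for Ddit3. Nupr1, a small stress-induced chromatin protein, was listed at 0 in 5 of 15 libraries and reached 4.61, 1.04 and 2.60 TPM with MW150 against 0, 0.511 and 0 in WT. Its log2 change from WT to MW150-treated SMA was 1.59 (SE 0.507, limma adjusted p = 0.383), and 1.49 (SE 0.582, adjusted p = 0.453) without the 2 libraries. Nupr1 was at 1 TPM or more in 5 libraries and passed the filter on low values only through the MW150 group. Its change in that group is therefore a description and no support for a difference.

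Asns and Slc3a2 were the most abundant genes of the arm. Asns, asparagine synthetase, averaged 199.7 TPM over the 15 libraries, below only Calr, Hspa5 and Pdia3 among the members, and Slc3a2, the heavy chain shared by several amino acid exchangers, 128.3 TPM. Asns was at 70.5, 176.0 and 235.6 TPM in the WT libraries and 259.6, 164.9 and 204.2 in SMA, so WT replicate 1 alone was outside the SMA spread. Slc3a2 was at 48.4 TPM in WT replicate 1 and 56.7 in Pifithrin-α replicate 3 and between 110.3 and 166.8 TPM in the other 13.

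Phgdh, the first enzyme of serine synthesis from glucose intermediates, was at 2.75, 47.2 and 46.6 TPM in the WT libraries and 37.0, 61.0 and 62.1 in SMA. It was at 29.8, 26.5 and 59.9 TPM with MW150, 34.2, 23.4 and 8.52 with Pifithrin-α and 21.5, 18.2 and 32.5 with SMN-C3. Every Pifithrin-α and SMN-C3 library was below every SMA library. WT replicate 1 was the lowest of the 15 libraries, and the WT and SMA groups overlapped. Phgdh marks astrocytes strongly in spinal cord, and summed astrocyte markers were at 774.6 to 1520 TPM in WT, 1408 to 1971 in SMA, 769.7 to 1538 with Pifithrin-α and 1400 to 1611 with SMN-C3. Their part in the Phgdh values was not tested.

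Psat1, the next enzyme of that pathway, ranged from 19.7 to 51.4 TPM with no order between groups. In WT replicate 1, 35.3 of its 44.4 TPM came from Psat1-204, a retained intron transcript. Shmt2, which makes glycine in mitochondria, was at 7.31, 18.1 and 20.8 TPM in the WT libraries and 22.2, 22.9 and 23.6 in SMA. Mthfd2, the mitochondrial folate enzyme beside it, was within 45.45 to 45.81 TPM in the 3 SMA libraries and at 29.0 to 55.7 in WT.

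Slc7a5, the light chain that imports large neutral amino acids with Slc3a2, was at 6.17, 13.7 and 22.1 TPM in the WT libraries and 23.5, 27.0 and 24.4 in SMA. With SMN-C3 it was at 15.8, 16.7 and 17.4 TPM, below SMA in every library. Slc7a11, the cystine importer of the same partner, was at 2.53, 3.65 and 5.83 TPM in the WT libraries and 4.20, 5.49 and 7.63 in SMA. It was at 6.29, 6.22 and 5.25 TPM with MW150, 4.95, 4.58 and 3.65 with Pifithrin-α and 2.012, 2.535 and 2.003 with SMN-C3. The SMN-C3 libraries were below all SMA libraries and at the level of the lowest WT library. Its log2 change from SMA to SMN-C3 was -1.06 (SE 0.332, limma adjusted p = 0.354).

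Of the sensors and factors of the chaperone arm, Xbp1 was abundant and Ern1 and Atf6 were not. Xbp1 averaged 64.7 TPM, Atf6 3.56 TPM and Ern1 0.831 TPM, the lowest mean of the 35 members. Xbp1 was at 38.0, 57.7 and 69.5 TPM in WT, 81.4, 61.0 and 71.0 in SMA and 71.1, 85.0 and 73.2 with MW150. The MW150 libraries were all above WT, as were those of Syvn1, while the SMA and WT libraries of Xbp1 overlapped. The table gives total Xbp1 and does not separate the spliced mRNA. Atf6 was at 2.30, 2.90 and 2.75 TPM in SMA and at 5.48, 3.85 and 4.86 with MW150 and 5.37, 3.87 and 3.32 with Pifithrin-α. Atf6 libraries of both compounds were all above SMA, and those of SMN-C3 (2.76 to 2.81) were not. In WT, Atf6 was at 4.16, 2.26 and 3.95 TPM, and SMA and every compound group overlapped WT.

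The chaperones were among the highest mRNAs of the set, and their WT and SMA ranges overlapped. Calr, calreticulin, averaged 376.5 TPM, Hspa5, the chaperone BiP, 255.9 TPM, Pdia3, a disulfide isomerase, 249.8 TPM, Hsp90b1, the chaperone Grp94, 176.8 TPM, and Canx, calnexin, 147.7 TPM. Hspa5 was at 247.2, 209.0 and 272.8 TPM in the WT libraries and 288.9, 182.7 and 234.0 in SMA. Its WT and SMA values overlapped fully, with a 95% interval of the log2 change of -0.53 to 0.41 (-0.47 to 0.37 without the 2 libraries), given because Hspa5 is the usual marker of the response.

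Calr was at 312.0, 410.9 and 399.7 TPM in the WT libraries and 406.5, 331.7 and 412.2 in SMA, so the groups overlapped, and its lowest values were 271.1 and 182.5 in Pifithrin-α replicates 2 and 3. Pdia3 was at 544.7 TPM in Pifithrin-α replicate 3, against 164.0 to 295.8 in the other 14, and 395.4 TPM of it came from the protein-coding transcript Pdia3-201. Pdia4, another disulfide isomerase, ranged from 15.1 TPM in Pifithrin-α replicate 2 to 44.4 in WT replicate 3. Sdf2l1, a partner of the BiP cycle, was at 14.3 and 14.9 TPM in WT replicate 1 and Pifithrin-α replicate 3 and at 26.9 to 60.1 in the other 13.

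Dnajb9, a J-domain partner of BiP that represses Ern1, was at 38.2, 10.5 and 13.9 TPM in the WT libraries and 10.8, 7.26 and 9.75 in SMA. It was at 11.3, 10.3 and 9.86 TPM with MW150, 8.62, 19.4 and 16.4 with Pifithrin-α and 16.1, 13.1 and 13.3 with SMN-C3. WT and SMA overlapped, and SMN-C3 was above SMA in every library. The log2 change from WT to SMA was -0.89 (SE 0.402, limma adjusted p = 0.363), and -0.37 (SE 0.313, adjusted p = 0.750) without the 2 libraries, so the size of this change rested on WT replicate 1.

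**Figure D3:**
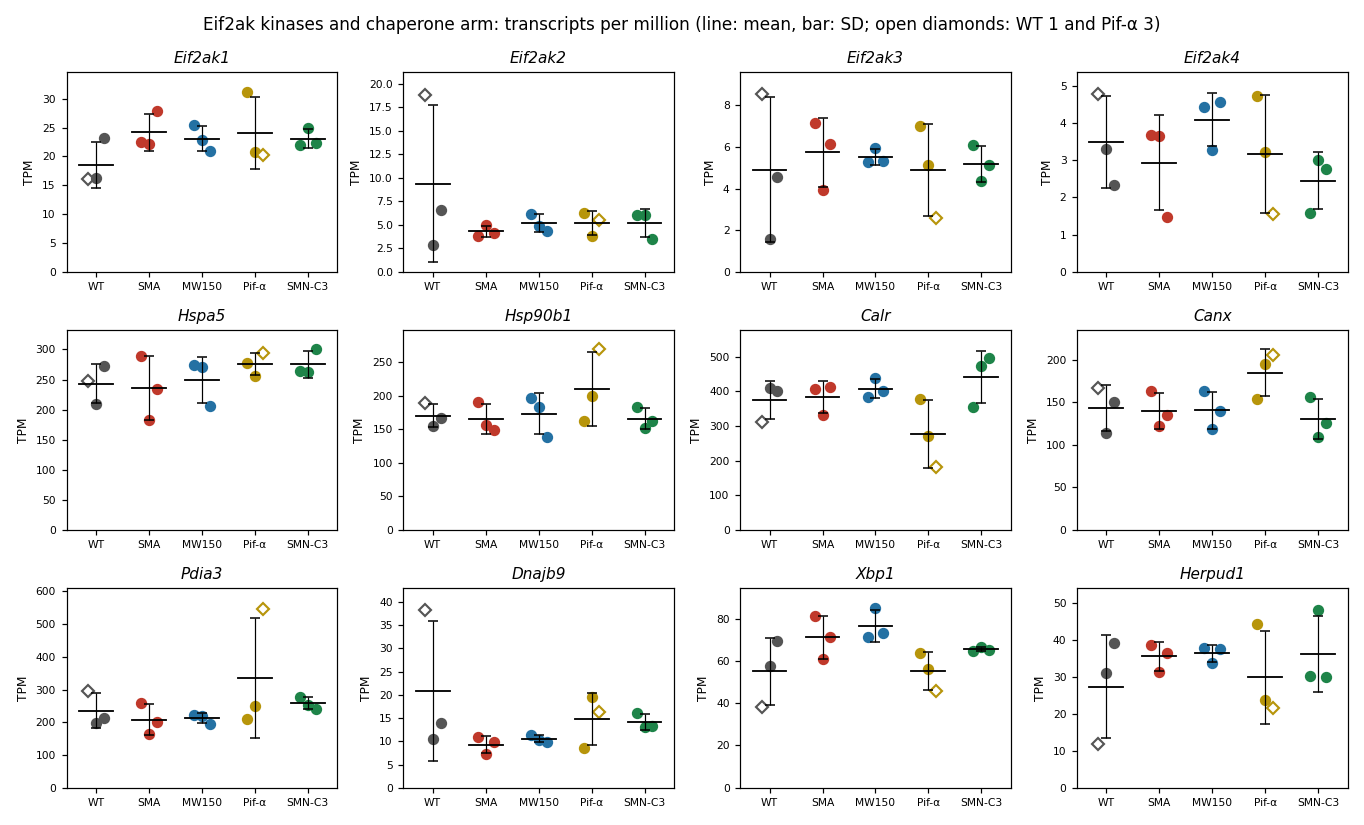
TPM of the 4 Eif2ak kinases and 8 chaperone-arm genes in the 15 libraries, by group; points are libraries, horizontal lines group means, bars SD (n = 3), and open diamonds WT replicate 1 and Pifithrin-α replicate 3. Dnajb9 and Eif2ak2 in WT replicate 1 (38.2 and 18.8 TPM) and Pdia3 in Pifithrin-α replicate 3 (544.7 TPM) stand above all other points of their panels.

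The genes of degradation from the endoplasmic reticulum were of middling level. Herpud1 gathers the degradation complex and holds both kinds of element shown above. It was at 11.9, 31.1 and 39.2 TPM in the WT libraries and 38.8, 31.4 and 36.7 in SMA. WT replicate 1 alone lay apart. Sel1l, the adaptor of the ligase, was at 61.1, 26.5 and 34.3 TPM in the WT libraries and 18.3 to 43.2 in the other 12 libraries, and 41.0 of the 61.1 TPM came from Sel1l-202, a transcript annotated as processed. Syvn1, the ligase Hrd1, was at 7.82, 12.7 and 14.4 TPM in the WT libraries and 17.1, 23.6 and 17.9 with SMN-C3, with no overlap.

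**Figure D4:**
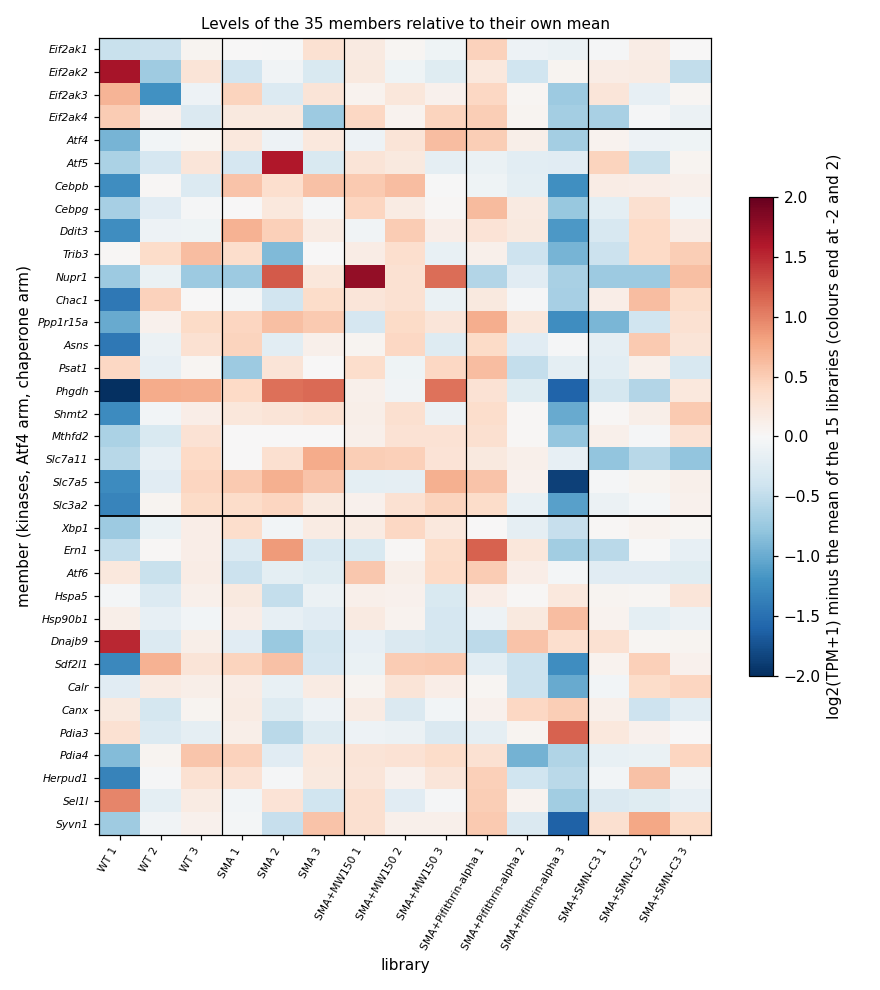
Log2(TPM + 1) minus the gene's mean over the 15 libraries, for the 35 genes (rows, by set) in the 15 libraries (columns, by group); red is above and blue below the mean, and colours end at -2 and 2. The columns of WT replicate 1 and Pifithrin-α replicate 3 are blue over most Atf4-arm rows, and the chaperone rows Hspa5, Hsp90b1 and Canx stay pale.

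All 3 compound groups were compared with the same SMA libraries, and all with the same WT libraries, so the comparisons are not independent. MW150 against SMA gave medians of -0.04 for the Atf4 arm, 0.09 for the kinases and 0.09 for the chaperone arm, beside 0.06 over all genes, and no member had an unadjusted p under 0.05, against 1.9% of all genes. Without the 2 libraries, which are in neither group but enter the shared estimate of the spread, Atf6 had one, against 5.37%. Of the 35 members, 3 did not overlap SMA, Ppp1r15a (lower), Mthfd2 and Atf6 (higher), against 10.9% of all genes.

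Pifithrin-α against SMA gave medians of -0.47, 0.02 and 0.08 for the Atf4 arm, kinases and chaperone arm, beside -0.22 over all genes. These became -0.07, 0.12 and 0.15 without the 2 libraries, beside 0.00 over all genes. Cebpb was the member with an unadjusted p under 0.05, against 10.7% of all genes, with a log2 change of -1.002 (SE 0.366, limma adjusted p = 0.461), and -0.64 (SE 0.248, adjusted p = 0.442) without the 2 libraries, where Phgdh (lower) also had one, against 9.54%. The members that did not overlap SMA were Cebpb and Phgdh (lower) and Atf6 (higher), against 15.3% of all genes, and without the 2 libraries Mthfd2 (higher) as well, against 22%. With gene-by-gene array weights 5 of 35 members were called, where 10.2% of all genes were: Cebpb (adjusted p = 0.0497), Phgdh (0.0481), Calr (0.0481) and Pdia4 (0.0211) lower and Dnajb9 (0.0279) higher. Those weights gave Pifithrin-α replicate 2 a weight of 5.71 and replicate 3 one of 0.188, so the group mean rested mostly on replicate 2. The default weights, which did not converge, called 10 of 35 members, these 5 among them, and 33.4% of all genes.

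SMN-C3 against SMA gave medians of -0.30, -0.08 and 0.00 for the Atf4 arm, kinases and chaperone arm, beside -0.23 over all genes. With each library left out in turn, the Atf4-arm median ranged from -0.33 without SMA replicate 3 to -0.07 without SMA replicate 2. It was -0.19 without SMN-C3 replicate 2. The median over all genes was -0.21 without SMA replicate 2 and -0.24 without SMN-C3 replicate 2. All SMN-C3 libraries were below all SMA libraries for 6 Atf4-arm genes, Cebpb, Ppp1r15a, Phgdh, Slc7a11, Slc7a5 and Slc3a2, against 18.2% of all genes, and above them for Dnajb9, against 2.52%. Of these only Slc7a11 had an unadjusted p under 0.05, against 8.53% of all genes. Without WT replicate 1 and Pifithrin-α replicate 3, again only through the shared spread, Slc7a11, Phgdh, Ppp1r15a and Slc3a2 had one, against 17.7%, and the limma adjusted p was 0.0876 for Slc7a11 and 0.0825 for Phgdh. With gene-by-gene array weights it was 0.0422 for Slc7a11, the 1 member called there, where 1.5% of all genes were.

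Against WT, the Atf4-arm median was 0.50 with MW150, 0.07 with Pifithrin-α and 0.28 with SMN-C3, beside 0.31, 0.02 and 0.00 over all genes. These became 0.13, 0.03 and 0.06 without the 2 libraries, beside 0.19, 0.15 and -0.09 over all genes. With each library left out in turn the Atf4-arm median ranged from 0.13 to 0.77 with MW150 and from 0.06 to 0.59 with SMN-C3, in both the lowest without WT replicate 1 and the highest without WT replicate 3. With Pifithrin-α it ranged from -0.15 without WT replicate 1 to 0.40 without Pifithrin-α replicate 3. The chaperone-arm medians were 0.13, 0.11 and 0.14 (MW150, Pifithrin-α, SMN-C3), and 0.05, 0.13 and 0.03 without the 2 libraries. The kinase medians were 0.26, -0.01 and -0.05, and 0.32, 0.37 and 0.20 without them.

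Every MW150 library was above every WT library for 5 members (Cebpg, Ddit3, Nupr1, Xbp1 and Syvn1), against 17.9% of all genes. Of these, Nupr1 passed the filter only through its MW150 libraries. SMN-C3 was likewise above WT for Cebpb and Syvn1, against 4.03% of all genes, and Pifithrin-α overlapped WT for all 35, where 6.87% of all genes did not. Without the 2 libraries, which leaves 2 in WT and 2 with Pifithrin-α, 6 members were higher and 4 lower than WT with Pifithrin-α and no overlap, against 36.5% of all genes. The higher were Eif2ak3, Atf4, Cebpg, Ddit3, Ern1 and Canx, and the lower Trib3, Phgdh, Sdf2l1 and Calr. With MW150 the counts were then 6 higher and 1 lower, against 31% of all genes, and with SMN-C3 3 and 3, against 22.2%.

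In MW150 against WT, 2 members had an unadjusted p under 0.05, Nupr1 and Cebpb, against 10.2% of all genes, and without the 2 libraries Nupr1 and Eif2ak3 had one, against 9.17%. Nupr1 is no support here, because it passed the filter only through the MW150 group. The Cebpb log2 change was 0.88 (SE 0.366, limma adjusted p = 0.471), and 0.51 (SE 0.248, adjusted p = 0.566) without the 2 libraries. Pifithrin-α and SMN-C3 against WT gave 0 members with an unadjusted p under 0.05, against 5.78% and 7.31% of all genes. With WT replicate 1 and Pifithrin-α replicate 3 left out these were Eif2ak3 (higher) and Sdf2l1 (lower) with Pifithrin-α, against 8.76%, and Phgdh and Slc7a11 (both lower) with SMN-C3, against 6.62%. With gene-by-gene array weights Pdia4 was the 1 member called in Pifithrin-α against WT (lower, adjusted p = 0.0311), where 3.95% of all genes were.

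**Figure D5:**
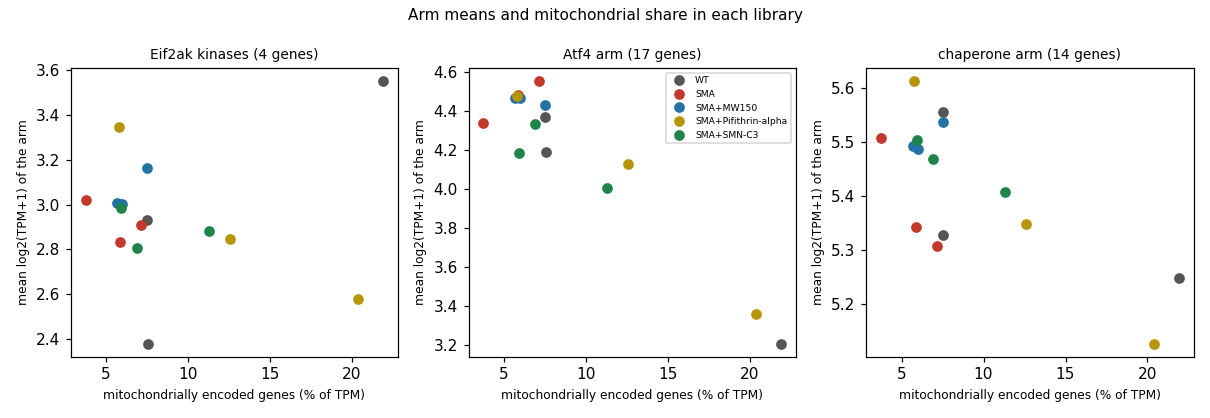
Mean log2(TPM + 1) over the 4 kinases, the 17 Atf4-arm genes and the 14 chaperone-arm genes in each library (vertical axes) against the share of TPM from mitochondrially encoded genes (horizontal axes, percent); each point is a library, coloured by group. The Atf4-arm mean was 3.21 in WT replicate 1 and 3.36 in Pifithrin-α replicate 3, and 4.003 to 4.55 in the other 13 libraries.

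Other genes of the 2 pathways were taken from lists of 48 integrated stress genes and 38 unfolded protein genes, of which 46 and 37 were tested. With all 15 libraries weighted equally, none was called in any of the 7 comparisons. Gene-by-gene array weights called 7 in Pifithrin-α against SMA, against 10.2% of all genes, and 3 in Pifithrin-α against WT, against 3.95%. In SMA against WT they called 1 (Creb3l1), against 100 of all 15425 genes. They called 1 in SMN-C3 against SMA (Creb3l1, against 1.5% of all genes) and 1 in MW150 against WT (Dele1, against 91 genes). The default weights, which did not converge, called 23, 15, 2, 3 and 5 in these comparisons, in that order. Of all 15425 genes they called 5155, 3760, 162, 331 and 248, in the same order. In SMA against WT, 8 of the 46 and 4 of the 37 had an unadjusted p under 0.05, all higher, against 10.6% of all genes in that direction, and the list medians were 0.43 and 0.28, beside 0.24 over all genes. With the 2 libraries left out, the counts were 5 and 2, all higher, against 8.01%, and the medians 0.21 and 0.15, beside 0.12. Creb3l1, an Atf6-like factor of the endoplasmic reticulum membrane, was at 5.68, 4.10 and 5.36 TPM in the WT libraries and 21.1, 18.4 and 12.98 in SMA. It was at 14.5, 13.4 and 8.49 TPM with MW150, 7.23, 9.79 and 4.41 with Pifithrin-α and 5.43, 8.06 and 5.37 with SMN-C3. SMA was above WT, Pifithrin-α and SMN-C3 in every library. Its log2 change from WT to SMA was 1.60 (SE 0.341, limma adjusted p = 0.0575), and 1.67 (SE 0.318, adjusted p = 0.0228) without the 2 libraries. Its adjusted p was 0.0193 with gene-by-gene array weights and 0.00887 with the default weights. In SMN-C3 against SMA its log2 change was -1.34 (SE 0.341, limma adjusted p = 0.193). It was called lower with the 2 libraries left out of the shared spread (SE 0.285, adjusted p = 0.0367). Gene-by-gene array weights also called it lower there (limma adjusted p = 0.0289).

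Ddit4, a stress-induced inhibitor of mTORC1 that p53 also induces, had means of 7.97 TPM in WT against 20.8 in SMA libraries (log2 change 1.27, SE 0.349, adjusted p = 0.165). Its log2 change was 1.17 (SE 0.265, adjusted p = 0.0622) without the 2 libraries, and with the default array weights its adjusted p was 0.028. Sesn2, a leucine sensor induced by both Atf4 and p53, was at 7.90 and 22.7 TPM (log2 change 1.56, SE 0.482, adjusted p = 0.226), and without the 2 libraries its change was 1.03 (SE 0.251, adjusted p = 0.093). Eif4ebp1, a repressor of cap-dependent translation, was at 7.93 and 18.1 TPM (log2 change 1.15, SE 0.342, adjusted p = 0.207), and its change was then 0.86 (SE 0.257, adjusted p = 0.2).

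Of the unfolded protein list, Sil1, the nucleotide exchange factor of BiP, was at 27.7 and 42.5 TPM (log2 change 0.72, SE 0.310, adjusted p = 0.352). Its change was 0.28 (SE 0.192, adjusted p = 0.674) without the 2 libraries, so its size rested on WT replicate 1. Edem1, of glycoprotein degradation, was at 1.37 and 3.1 TPM (log2 change 0.83, SE 0.367, adjusted p = 0.357), and its change was 1.10 (SE 0.380, adjusted p = 0.295) without the 2 libraries.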

How the data were processed

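Values are TPM per gene, and the transcript values are TPM too, made by the authors and deposited. The submitters' processing notes name kallisto 0.44.0, DESeq2, GRCm38.p6 and mm10; the annotation release is not given in the sources used here. Of 118489 transcripts in the deposited table, 98.5% matched GENCODE M21, which was used for names and positions. TPM keeps no read depth, so depth is unknown and no count test was run. Members and gene lists were chosen with earlier results of these data known. The 15425 genes that reached 1 TPM in 3 or more libraries entered the tests as log2(TPM + 1), so fold changes of low genes are understated, with limma 3.58.1 in R 4.3.3 (5 group means, variance trend, moderated test, Benjamini-Hochberg adjustment within each of 7 comparisons). Log2 change, SE and adjusted p are printed for members with an unadjusted p under 0.05 in all 15 libraries, and for the 3 other genes per list with the largest moderated statistic in SMA against WT; members named for a result without the 2 libraries or called with array weights were named after their values were seen. Library pairs correlated at 0.838 to 0.972 and none was a copy. The method was tested on simulated data with independent noise and no outlying library. That test checked that large changes are recovered and does not measure the power in these libraries. Alternatives were a pseudocount of 0.1, no filter, a mean of at least 5 TPM, median-of-ratios scaling, removal of mitochondrial genes, array weights, only the 2 groups compared, a replicate block and left-out libraries. The default array-weight method stopped before it converged, so the gene-by-gene method was added after the default's calls had been seen, and both are reported.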

Additional observations from a re-analysis of the deposited data

How the results depend on the processing

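Across the alternatives no member was called, except with array weights. The default (REML) weights did not converge and gave Pifithrin-α replicate 2 a weight of 276 against 0.0942 to 1.83 for the other 14 libraries; the gene-by-gene weights were added after those calls were seen. Members called were 10 and 5 in Pifithrin-α against SMA (default, then gene by gene), 1 and 1 in SMN-C3 against SMA and 7 and 1 in Pifithrin-α against WT. Genes called, in the same order, were 162 and 100 in SMA against WT, 3 and 3 in MW150 against SMA, 5155 and 1574 in Pifithrin-α against SMA, 331 and 231 in SMN-C3 against SMA, 248 and 91 in MW150 against WT, 3760 and 609 in Pifithrin-α against WT and 59 and 39 in SMN-C3 against WT.

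In SMA against WT the 56 genes called became 35 with no filter, 16 with only the 2 groups compared and 88 without WT replicate 1 and Pifithrin-α replicate 3. MW150 against SMA (1) gave 0 with a pseudocount of 0.1, 2 with no filter, 0 at a mean of 5 TPM and 2 with only the 2 groups; Pifithrin-α against SMA (1) gave 0, 3, 0 and 0. SMN-C3 against SMA (10) gave 4 at a mean of 5 TPM, 21 with only the 2 groups and 166 without the 2 libraries. MW150 against WT (22) gave 13 with no filter and 42 without the 2 libraries, Pifithrin-α against WT (18) gave 6 with no filter and 0 with only the 2 groups, and SMN-C3 against WT (3) gave 5 with median-of-ratios scaling and 7 without the 2 libraries.

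The chaperone-arm median moved with median-of-ratios scaling to -0.25 (SMA against WT), 0.25 (SMN-C3 against SMA) and -0.09 (MW150 against WT), and at a mean of 5 TPM to -0.15 (Pifithrin-α against SMA) and -0.10 (Pifithrin-α against WT). Without the 2 libraries the Atf4-arm median was -0.072 (Pifithrin-α against SMA) and the kinase median 0.37 (Pifithrin-α against WT). With each library left out in turn, genes called ranged from 20 to 56, 0 to 1, 0 to 1, 0 to 11, 9 to 22, 5 to 30 and 2 to 8 in the 7 comparisons (SMA against WT, then MW150, Pifithrin-α and SMN-C3 against SMA, then the same against WT), the lowest of the first 4 each reached without SMA replicate 1. The Atf4-arm median of Pifithrin-α against SMA ranged from -0.53 to -0.072, and the chaperone-arm median from -0.26 to 0.15 there and from -0.076 to 0.24 in Pifithrin-α against WT. The cause of these moves was not tested.

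Same-numbered libraries of different groups correlated in their deviations from the group means at -0.342 to 0.285, with 4 of 30 pairs over 0.1. Of the unlike-numbered pairs 16 of 60 were over 0.1, so no pairing by number was seen. With 3 libraries a group such correlations cannot exclude a pairing. With the replicate block 48 genes and 0 members were called in SMA against WT, and 0 members in the other 6 comparisons. The sign of a change was followed across the alternatives only for members with an unadjusted p under 0.05 in all 15 libraries and for the 3 other genes per list. None of those changes reversed. Others could: Dnajb9 in Pifithrin-α against WT went from -0.33 to 0.64 with the default array weights, and the chaperone-arm medians above changed sign. Precision is limited by 3 libraries a group, and depth is unknown.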
